A study of Homo sapiens with 6 samples.

Results

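Mitotic kinesins are motor proteins that build the spindle, move chromosomes on it and form the structure that divides the cell. The 10 genes described here were chosen by name: KIF11, KIFC1, KIF4A, KIF22, KIF2C, KIF18A, KIF14, KIF20A, KIF20B and KIF23. They are 10 of the 60252 gene IDs in the deposited count table, matched by Ensembl ID, and all 10 had enough reads to be tested. RNA was measured in RPE-1, a telomerase-immortalised human cell line from retinal pigment epithelium, in 17 libraries from 6 conditions. 4h_ATRi and 6h_ATRi cells had been held at the start of S phase for 24 h in 2 mM thymidine, washed into normal medium, given the ATR inhibitor AZ20 at 2 µM from 1 h after the wash, and collected 4 h or 6 h after release. 4h_DMSO and 6h_DMSO cells had the same block and release with the solvent DMSO in place of the inhibitor. Arrested cells came straight from the thymidine block with no release and no drug, and cycling cells were asynchronous and had neither block nor drug. There were 3 libraries for each condition, 1 from each of 3 independent experiments lettered A, B and C, except for 6h_ATRi, where experiment C is not analysed here and 2 libraries remain. The study asked which genes are under transcriptional control by ATR in late S phase (4 h) and in G2 (6 h), and all cells were of 1 line.

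Kinesins walk along microtubules or shorten them with energy from ATP hydrolysis. In dividing cells KIF11 and KIFC1 shape the bipolar spindle, KIF4A and KIF22 bind chromosome arms, KIF2C and KIF18A act on microtubule ends at kinetochores, and KIF14, KIF20A, KIF20B and KIF23 work in the midzone and midbody where daughter cells separate. Transcripts of this kind accumulate late in the cell cycle, under the MuvB complex with B-MYB and FOXM1, which are recruited through a short promoter element called the cell cycle genes homology region. ATR is the kinase that signals stalled replication forks and holds back CDK1 while DNA is still being copied.

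The promoters are shown because that element, and the CCAAT box bound by NF-Y that often lies upstream of it, are the sequence features most often linked to late cell cycle expression. RefSeq promoters on GRCh38.p14, from 250 bases before to 50 after each annotated start, were matched for 10 of 10 genes. As forms of the element, the letters TTTGAA were searched on both strands. So were the letters of another form, TTCGAA, and of the last one, TTTAAA. The box was searched as CCAAT, likewise on both strands. Matches of different motifs were counted separately even where they overlap. Below are 8 of the promoters, from 100 bases before the start to 30 after it, read 5′ to 3′ on the gene's strand, with matches to any of these motifs on either strand in capitals.
KIF11 (chr10:92593030-92593159, plus strand): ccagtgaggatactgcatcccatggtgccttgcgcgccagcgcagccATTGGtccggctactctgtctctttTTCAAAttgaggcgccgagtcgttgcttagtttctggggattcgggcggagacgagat
KIFC1 (chr6:33391723-33391852, plus strand): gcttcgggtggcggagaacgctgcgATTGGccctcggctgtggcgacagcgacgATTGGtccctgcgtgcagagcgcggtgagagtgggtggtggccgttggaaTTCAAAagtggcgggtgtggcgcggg
KIF22 (chr16:29790651-29790780, plus strand): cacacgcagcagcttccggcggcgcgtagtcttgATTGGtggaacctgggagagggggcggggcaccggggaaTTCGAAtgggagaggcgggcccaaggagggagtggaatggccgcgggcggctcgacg
KIF18A (chr11:28108127-28108256, minus strand): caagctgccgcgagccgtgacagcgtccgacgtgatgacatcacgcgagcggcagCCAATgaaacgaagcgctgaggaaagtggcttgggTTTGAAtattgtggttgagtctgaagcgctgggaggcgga
KIF14 (chr1:200620722-200620851, minus strand): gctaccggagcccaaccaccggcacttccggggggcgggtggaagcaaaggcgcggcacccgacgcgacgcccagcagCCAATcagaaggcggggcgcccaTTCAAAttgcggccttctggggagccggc
KIF20A (chr5:138179012-138179141, plus strand): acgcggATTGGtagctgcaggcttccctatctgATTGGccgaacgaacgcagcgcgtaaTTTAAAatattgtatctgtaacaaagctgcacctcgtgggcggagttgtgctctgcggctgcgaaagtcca
KIF20B (chr10:89701490-89701619, plus strand): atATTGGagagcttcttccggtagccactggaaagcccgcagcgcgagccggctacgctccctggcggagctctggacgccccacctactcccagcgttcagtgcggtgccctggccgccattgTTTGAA
KIF23 (chr15:69414249-69414378, plus strand): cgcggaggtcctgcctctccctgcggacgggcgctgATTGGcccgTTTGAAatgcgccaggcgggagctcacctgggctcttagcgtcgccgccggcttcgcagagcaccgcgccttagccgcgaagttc

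At least 1 of the 3 hexamers was present in all 11 promoters of the 10 genes, against 25.1% of the 35116 RefSeq promoters of the same length. In the window from 100 bases before to 50 after the start, 10 of the 11 promoters held one, against 11.7% of all promoters; the promoter without it was the second annotated start of KIF22. TTTGAA was found in 7 of the 11, against 15.2% overall. TTCGAA was found in both promoters of KIF22, against 1.45% overall. TTTAAA was found in 4, against 12.2% overall. CCAAT was found in 9 of the 11 promoters, against 34.6% of all promoters. KIF2C was the gene without it, and the second start of KIF22 also lacked it. In 8 of the 11 promoters a CCAAT was followed by a hexamer within 60 bases, against 2.93% of all promoters. These matches describe the letters only, and binding was not measured.

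**Figure D1:**
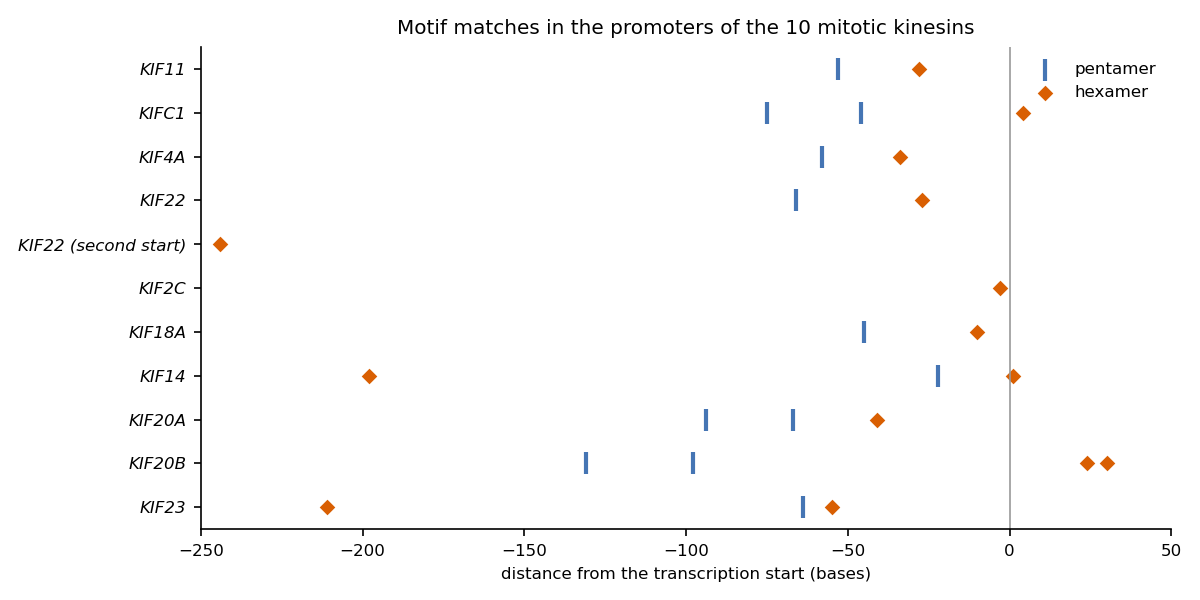
Positions of CCAAT pentamers and of the hexamers in the promoters of the 10 genes, as distance in bases from the annotated transcription start at 0; each row is 1 promoter and KIF22 has 2. Except for the second start of KIF22, each promoter has a hexamer within 100 bases of its start, and most of these follow a pentamer.

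Library totals lay between 1758747 and 2357561 counted reads, so single kinesins rested on few reads, between 3 and 119 per library. Values are given as CPM, read counts scaled to a common library total,, which do not correct for gene length, so levels are compared between conditions and not between genes. Libraries of experiment B stood apart on the first principal component of all features, which held 27% of the variance: their scores were 21.7 to 51.7, against -28.2 to -12.2 in experiments A and C. Letters were therefore also fitted as a replicate block, and that value is given for the 10 kinesins wherever it changes a call. Markers of pigment epithelium differed in level. RPE65 had at most 0.991 CPM and RLBP1 at most 1.62 CPM, whereas the epithelial keratin KRT8 had 2440 to 5220 CPM. The 9 markers other than BEST1, PMEL, KRT8 and KRT18 summed to 7.28 to 24.4 CPM per library. Over all libraries BEST1 had 437759 reads and PMEL 10976, and each overlaps another gene on the other strand, FTH1 and CDK2. The strand used for counting is not given in the sources used here. The kit was a stranded one, and FTH1, a ferritin gene that most cells transcribe heavily, had 4528 reads over all libraries while BEST1, which overlaps it on the other strand, had 437759. Counts under a kinesin's name may therefore come from the other strand of the same locus in part or in whole, and the annotated features opposite each kinesin are described with them.

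Summed over the 10 kinesins, reads were lowest in arrested and highest in 6h_ATRi libraries, while 4h_ATRi and 6h_DMSO libraries overlapped. The sum was 114, 110 and 106 CPM in arrested libraries of experiments A, B and C. At 4 h it was 264, 246 and 260 CPM in 4h_ATRi libraries, against 162, 149 and 153 CPM in 4h_DMSO libraries. At 6 h it was 290 and 299 CPM in 6h_ATRi libraries, against 247, 185 and 236 CPM in 6h_DMSO libraries. Cycling libraries lay between arrested and released ones, at 134, 148 and 154 CPM, overlapping with 4h_DMSO. Arrested cells had the lowest mean for 7 genes. KIF2C and KIF18A were lowest in cycling cells and KIF22 in 4h_DMSO cells. The highest mean was in 6h_ATRi for 8 genes and in 4h_ATRi for KIF14 and KIF11. The highest mean exceeded the lowest 4.98-fold for KIF14 and 4.34-fold for KIF18A, against 1.97-fold for KIF22. In such bulk RNA, a larger share of cells in G2 or mitosis and more kinesin RNA per cell cannot be told apart.

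**Figure D2:**
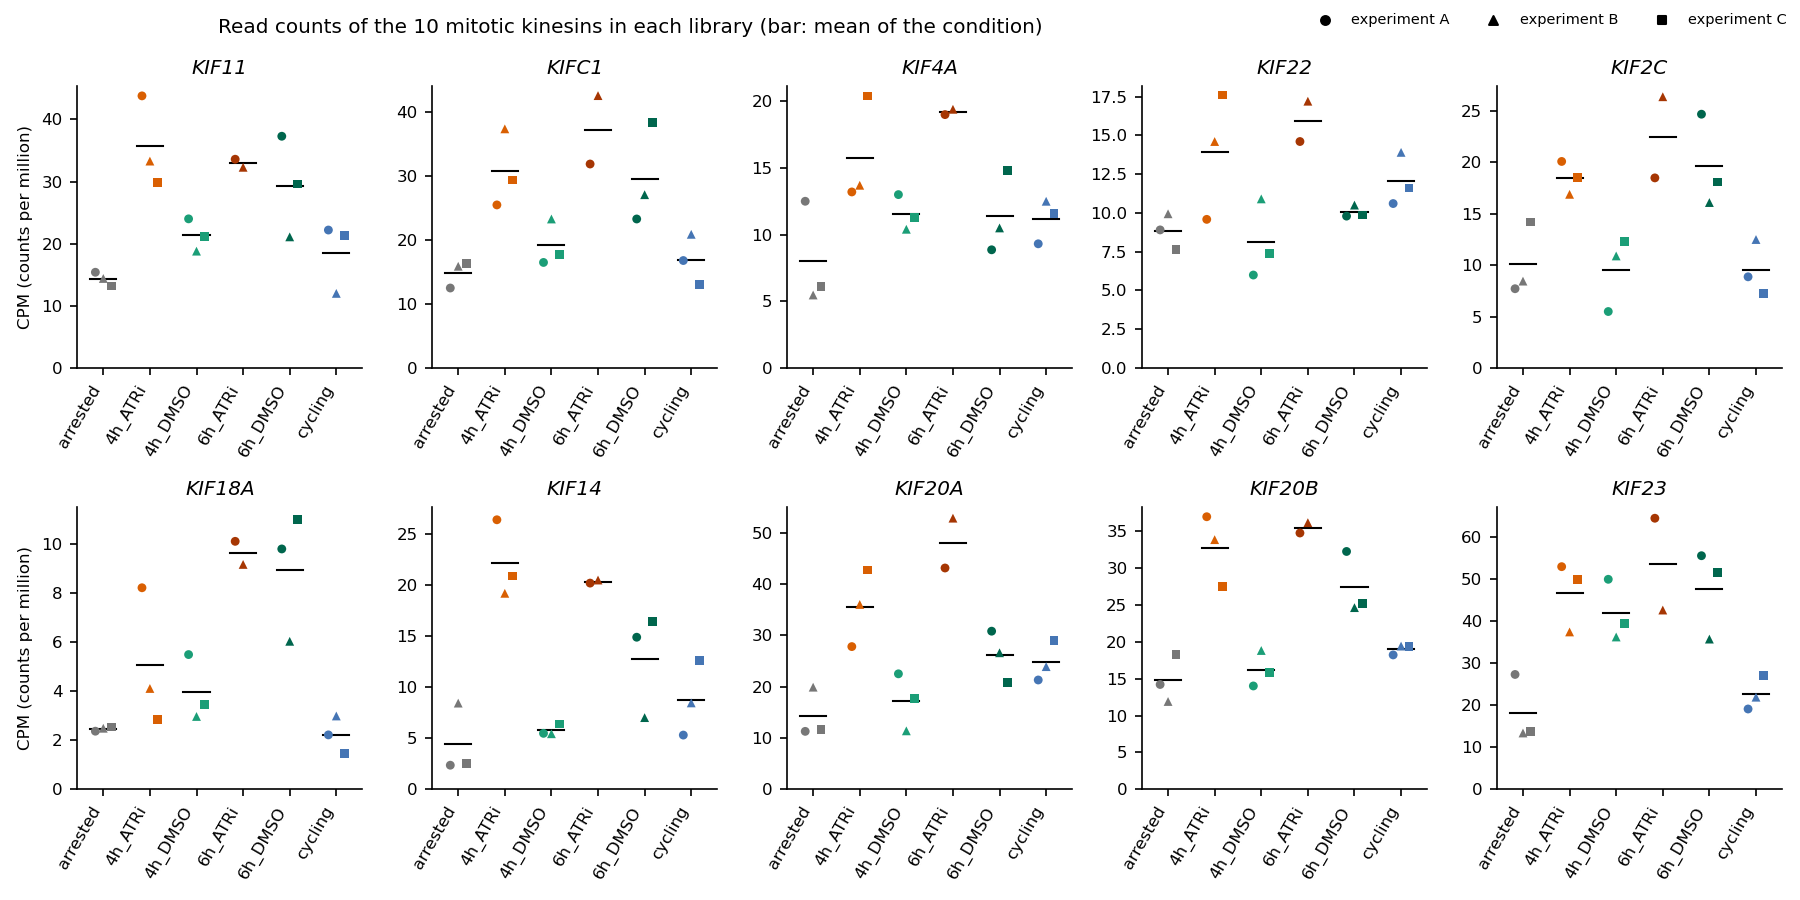
CPM of each kinesin (vertical axis, starting at 0) in each of the 17 libraries by condition, with 1 symbol per experiment and a bar at the mean. In 4h_ATRi, KIF14 sits between 19.2 and 26.4 CPM, above all 4h_DMSO libraries at 5.45 to 6.4 CPM, while the KIF23 libraries of both conditions overlap.

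The comparison of 4h_ATRi with 4h_DMSO asks how inhibition of ATR alters late S phase. KIF14 and KIF20B rose, and the other 8 kinesins had positive changes that did not pass the threshold in edgeR's quasi-likelihood test (Benjamini-Hochberg adjusted p under 0.05 over 13510 features). The 2 of 10 called stand against 0.289% of all features called higher. All 10 changes were positive, against 49.1% of all features, and 7 of 10 had an unadjusted p under 0.05, against 5.6% of all features. The median log2 change of the 10 genes was 0.76, against -0.01 for all features. Libraries of the conditions did not overlap for 7 of the 10, against 5.5% of all features, and 9 of 10 were higher in each of the 3 experiments, against 15.9% of all features.

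Among the midzone and midbody motors, KIF14, which recruits citron kinase to the midbody, had 26.4, 19.2 and 20.9 CPM in 4h_ATRi libraries, against 5.49, 5.45 and 6.4 CPM in 4h_DMSO libraries. The groups did not overlap, and the log2 change was 1.93 ± 0.39 (SE, edgeR adjusted p = 0.0209). KIF20B, a plus-end motor of late cytokinesis, had 36.9, 33.8 and 27.5 CPM in 4h_ATRi libraries, against 14, 18.8 and 15.8 CPM in 4h_DMSO libraries. Again no inhibited library fell within the range of the solvent ones, and the log2 change of KIF20B was 1.01 ± 0.23 (edgeR adjusted p = 0.0499). KIF20A, which carries the chromosomal passenger complex to the midzone, had 27.8, 36 and 42.7 CPM in 4h_ATRi libraries, against 22.5, 11.4 and 17.7 CPM in 4h_DMSO libraries. Its groups did not overlap, but experiment A showed a log2 ratio of 0.31 and experiments B and C 1.66 and 1.27. The log2 change of KIF20A was 1.04 ± 0.27 with an adjusted p of 0.128, and 0.00304 with the replicate block, where it was called. KIF23, the motor of the centralspindlin complex, had 52.9, 37.4 and 49.8 CPM in 4h_ATRi libraries, against 49.9, 36.2 and 39.4 CPM in 4h_DMSO libraries. Those groups overlapped, and the log2 change of KIF23 was 0.16 ± 0.25 (edgeR adjusted p = 1).

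Of these calls, that of KIF14 was lost when 4h_ATRi A or any of the 3 4h_DMSO libraries was left out, with adjusted p of 0.0907 to 0.141. With the replicate block the adjusted p of KIF14 was 2.11e-05 and the call held in 6 of 6 such fits. The call of KIF20B was lost without 4h_ATRi A, 4h_ATRi B or any of the 4h_DMSO libraries, with adjusted p of 0.0907 to 0.271. With the block the adjusted p of KIF20B was 0.00444 and held in 4 of 6 fits, being 0.067 without 4h_ATRi A and 0.101 without 4h_DMSO A. For KIF20A the block's call was lost without 4h_ATRi C (0.0967) and without 4h_DMSO B (0.18). The block made 3 calls among the 10 kinesins, against 1.2% of all features called higher, and DESeq2 made 2, against 0.407%.

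The spindle assembly motors had smaller values at 4 h. KIF11, the tetrameric motor that slides spindle poles apart, had 43.8, 33.3 and 29.9 CPM in 4h_ATRi libraries, against 24, 18.8 and 21.2 CPM in 4h_DMSO libraries. KIF11 libraries did not overlap, with a log2 change of 0.74 ± 0.25 (edgeR adjusted p = 0.506, and 0.0633 with the block). With the block and without 4h_ATRi C, KIF11 passed the threshold at 0.0463. KIFC1, the minus-end motor that focuses poles, had 25.5, 37.4 and 29.4 CPM in 4h_ATRi libraries, against 16.5, 23.3 and 17.7 CPM in 4h_DMSO libraries. KIFC1 libraries did not overlap either, and the log2 change was 0.68 ± 0.25 (edgeR adjusted p = 0.615).

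Of the motors on chromosome arms, KIF4A, which also sets midzone length with PRC1, had 13.2, 13.7 and 20.4 CPM in 4h_ATRi libraries, against 13, 10.4 and 11.3 CPM in 4h_DMSO libraries. The gap between the KIF4A groups was narrow and the log2 change was 0.44 ± 0.32 (edgeR adjusted p = 1). KIF22, which pushes chromosome arms towards the equator, had 9.58, 14.6 and 17.6 CPM in 4h_ATRi libraries, against 5.99, 10.9 and 7.38 CPM in 4h_DMSO libraries. KIF22 groups overlapped, with a log2 change of 0.78 ± 0.32 (edgeR adjusted p = 0.744). KIF2C, which depolymerises microtubules at centromeres, had 20.1, 16.9 and 18.5 CPM in 4h_ATRi libraries, against 5.49, 10.9 and 12.3 CPM in 4h_DMSO libraries. The KIF2C groups did not overlap, and the log2 change was 0.94 ± 0.32 (edgeR adjusted p = 0.526, and 0.0874 with the block). KIF18A, which damps chromosome movement at the plate, had 8.21, 4.11 and 2.85 CPM in 4h_ATRi libraries, against 5.49, 2.97 and 3.45 CPM in 4h_DMSO libraries. KIF18A was the gene whose ratio was below 1 in an experiment, at a log2 ratio of -0.27 in experiment C, and its log2 change was 0.35 ± 0.48 (edgeR adjusted p = 1).

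In G2, at 6 h, none of the 10 kinesins passed the threshold between 6h_ATRi and 6h_DMSO, in edgeR with or without the block or in DESeq2, which left 9 of them without an adjusted p. Of all features, 0.0074% were called higher in edgeR, 0.407% with the block and 0.118% in DESeq2. Unadjusted p was under 0.05 for 2 of the 10 kinesins in edgeR, against 4.8% of all features, and for 3 with the block and 1 in DESeq2. All 10 log2 changes were positive, against 51.3% of all features, between 0.11 and 0.87, with a median of 0.35 against 0.01 for all features. Libraries did not overlap for 5 of the 10, against 9.9% of all features in this comparison of 2 libraries with 3. KIF20A had 43.1 and 52.8 CPM in 6h_ATRi libraries, against 30.8, 26.6 and 20.8 CPM in 6h_DMSO libraries. Its groups did not overlap and the log2 change was 0.87 ± 0.28 (edgeR adjusted p = 0.741, and 0.0674 with the block). KIF4A had 19 and 19.4 CPM in 6h_ATRi libraries, against 8.86, 10.5 and 14.8 CPM in 6h_DMSO libraries, a log2 change of 0.76 ± 0.35 (edgeR adjusted p = 1). KIF14 had 20.2 and 20.5 CPM in 6h_ATRi libraries, against 14.9, 7.03 and 16.4 CPM in 6h_DMSO libraries. The 6h_DMSO library of experiment B was the low one for KIF14, and the log2 change was 0.67 ± 0.4 (edgeR adjusted p = 1). KIF22 had 14.6 and 17.2 CPM in 6h_ATRi libraries, against 9.79, 10.5 and 9.86 CPM in 6h_DMSO libraries, and KIF20B had 34.7 and 36.1 CPM, against 32.2, 24.6 and 25.2 CPM. The remaining genes, KIF11, KIFC1, KIF2C, KIF18A and KIF23, had overlapping libraries and log2 changes of 0.11 to 0.34.

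The inhibitor's change at 6 h minus its change at 4 h was tested directly, and no kinesin and 0% of all features passed the threshold in edgeR. With the block 0 kinesins and 0.0444% of all features passed, and in DESeq2 0 and 0%. Unadjusted p was under 0.05 for 1 kinesin, KIF14, in edgeR, against 2.97% of all features. KIF14 had a difference of -1.26 ± 0.57 log2 units (edgeR adjusted p = 1, and 0.769 with the block). KIF2C had -0.75 ± 0.47, KIF20B -0.64 ± 0.34 and KIF11 -0.58 ± 0.37, while KIF23 had 0.01 ± 0.37. Of all features 51.5% had positive differences. With 8 of 10 kinesin differences negative and SEs of 0.34 to 0.67, these data do not show that the response at 6 h was smaller.

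**Figure D3:**
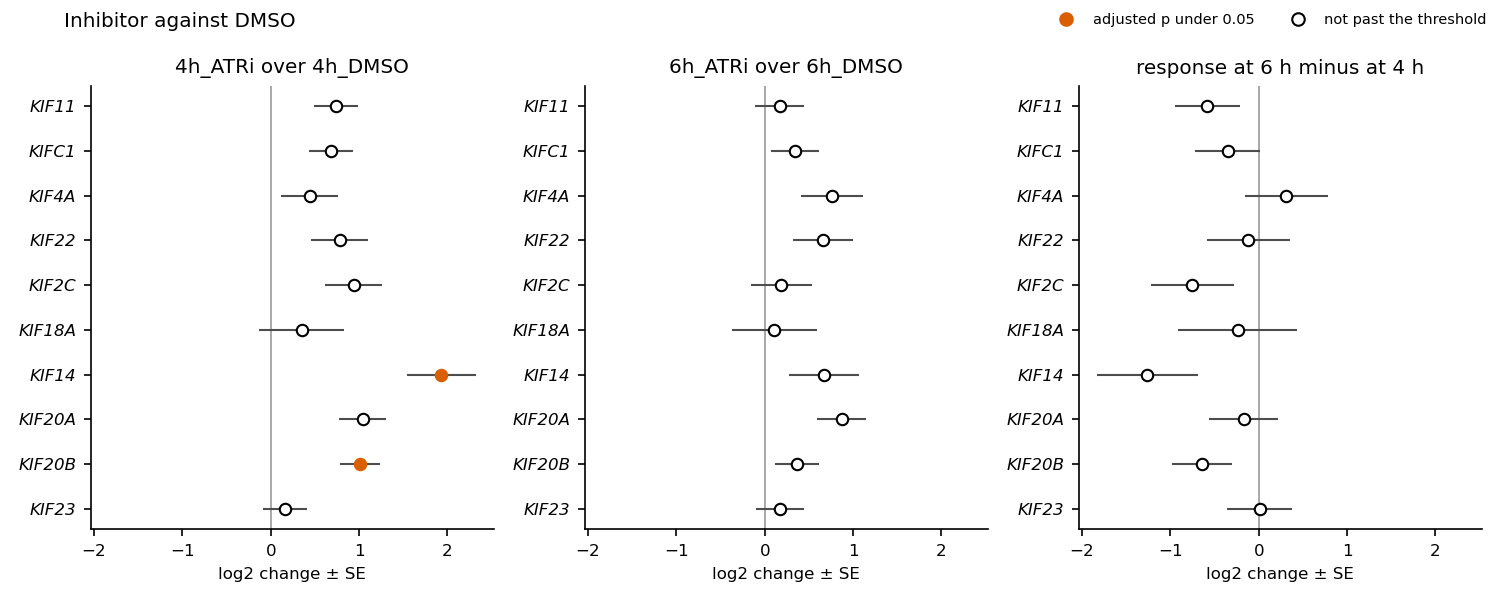
Log2 change with its SE (horizontal axis) for each kinesin in 4h_ATRi over 4h_DMSO, in 6h_ATRi over 6h_DMSO, and for the response at 6 h minus that at 4 h; filled points passed the threshold. KIF14 at 1.93 and KIF20B at 1.01 are the filled points, both at 4 h.

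Release without inhibitor shows when the kinesins normally accumulate. After 4 h, KIF23 was the kinesin that passed the threshold in 4h_DMSO against arrested cells, 1 of 10 beside 0.415% of all features called higher. KIF23 had 49.9, 36.2 and 39.4 CPM in 4h_DMSO libraries, against 27.3, 13.4 and 13.7 CPM in arrested libraries, and the groups did not overlap. Its log2 change was 1.22 ± 0.27 (edgeR adjusted p = 0.0246, and 1.34e-05 with the block). The call of KIF23 was lost without 4h_DMSO A, 4h_DMSO C, arrested B or arrested C, with adjusted p of 0.0983 to 0.191, and held in 6 of 6 such fits with the block. The other 9 genes had log2 changes of -0.12 to 0.67 at 4 h, and for KIF11, KIF18A and KIFC1 the libraries did not overlap. Non-overlap in that direction held for 4 of the 10 kinesins, KIF23 included, and for 7.19% of all features. The median log2 change of the 10 was 0.35, against 0.00 for all features.

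By 6 h, 5 of the 10 kinesins had risen in 6h_DMSO over arrested cells, KIF23, KIF18A, KIF11, KIFC1 and KIF20B, against 1.27% of all features called higher. With the block 8 of 10 passed, adding KIF14, KIF20A and KIF2C, against 3.77% of all features. KIF4A and KIF22 passed in neither, with log2 changes of 0.52 ± 0.34 and 0.19 ± 0.33. The median log2 change of the 10 was 0.96, against -0.01 for all features, and 7 of 10 had libraries that did not overlap, against 8.5% of all features.

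Values of the called kinesins at 6 h were as follows. KIF23 had 55.5, 35.7 and 51.5 CPM in 6h_DMSO libraries, against 27.3, 13.4 and 13.7 CPM in arrested libraries, a log2 change of 1.40 ± 0.27 (edgeR adjusted p = 0.00289). KIF23 was the 1 kinesin that passed with each of the 6 libraries left out, at adjusted p of 8.54e-04 to 0.0377. KIF18A had 9.79, 6.03 and 11 CPM in 6h_DMSO libraries, against 2.37, 2.49 and 2.54 CPM in arrested libraries. This was the largest log2 change of the 10 kinesins, at 1.83 ± 0.49 (edgeR adjusted p = 0.0456), on counts of few reads. KIF11 had 37.3, 21.1 and 29.6 CPM in 6h_DMSO libraries, against 15.4, 14.4 and 13.2 CPM in arrested libraries, a log2 change of 1.03 ± 0.27 (edgeR adjusted p = 0.0337). KIFC1 had 23.3, 27.1 and 38.4 CPM in 6h_DMSO libraries, against 12.5, 15.9 and 16.3 CPM in arrested libraries, a log2 change of 0.98 ± 0.26 (edgeR adjusted p = 0.0446). KIF20B had 32.2, 24.6 and 25.2 CPM in 6h_DMSO libraries, against 14.2, 11.9 and 18.3 CPM in arrested libraries, a log2 change of 0.88 ± 0.24 (edgeR adjusted p = 0.0446). In all 5 genes each library at 6 h was above each arrested one.

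Leaving out single libraries ended 4 of those calls. KIF20B passed in none of the 6 such fits, with adjusted p of 0.0503 to 0.199. KIF11 and KIF18A each passed only without 6h_DMSO B and otherwise had adjusted p of 0.0713 to 0.208 and 0.103 to 0.199. KIFC1 passed only without 6h_DMSO A, and otherwise had 0.0704 to 0.299. With the block, KIF23 and KIF11 passed in 6 of 6 fits, KIFC1 in 5 (0.135 without 6h_DMSO C) and KIF18A in 4 (0.155 without 6h_DMSO C and 0.0796 without arrested A). KIF20B passed in 3 with the block, with 0.113 without 6h_DMSO A, 0.0542 without arrested A and 0.0949 without arrested B.

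For KIF14 after release, experiment B differed from A and C. KIF14 had 14.9, 7.03 and 16.4 CPM in 6h_DMSO libraries, against 2.37, 8.45 and 2.54 CPM in arrested libraries of experiments A, B and C. Its log2 ratio was 2.65 in A and 2.69 in C but -0.27 in B, and over all libraries the log2 change was 1.48 ± 0.43 (edgeR adjusted p = 0.067, and 0.0056 with the block). Without arrested B the KIF14 change was 2.37 with an adjusted p of 0.00706, and without 6h_DMSO B it was 1.77 with 0.0262. The block's call of KIF14 was lost without 6h_DMSO A (0.0785), 6h_DMSO C (0.0695), arrested A (0.0869) or arrested C (0.175). KIF20A had 30.8, 26.6 and 20.8 CPM in 6h_DMSO libraries, against 11.3, 19.9 and 11.7 CPM in arrested libraries, a log2 change of 0.86 ± 0.28 (edgeR adjusted p = 0.125, and 0.0157 with the block). Without arrested B the adjusted p of KIF20A was 0.0366, and the block's call was lost without 6h_DMSO A (0.2), arrested A (0.11) or arrested C (0.172). KIF2C had 24.7, 16.1 and 18.1 CPM in 6h_DMSO libraries, against 7.71, 8.45 and 14.2 CPM in arrested libraries, a log2 change of 0.95 ± 0.32 (edgeR adjusted p = 0.157, and 0.0283 with the block). That call of KIF2C was lost without 6h_DMSO A (0.345), arrested A (0.147) or arrested B (0.144).

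From 4 h to 6 h of release in DMSO, no kinesin passed the threshold, beside 0.0666% of all features called higher in edgeR. DESeq2 and the block also made 0 calls, beside 0.185% and 0.651% of all features. Unadjusted p was under 0.05 for 6 of the 10 in edgeR and in DESeq2, against 4.97% of all features in edgeR. KIF18A had a log2 change of 1.16 ± 0.46, KIF14 of 1.14 ± 0.41, KIF2C of 1.03 ± 0.32 and KIF20B of 0.76 ± 0.23, with edgeR adjusted p of 0.494 to 0.787. KIF23, which was already high at 4 h, had 0.19 ± 0.25, and KIF4A had -0.03 ± 0.33. Libraries did not overlap for 5 of the 10 kinesins, against 5.11% of all features. With the block and without 6h_DMSO B, KIF14 passed at an adjusted p of 0.0411. Under the inhibitor, 6h_ATRi against 4h_ATRi gave log2 changes of -0.13 to 0.92 and 0 calls in edgeR, with the block and in DESeq2, which left 5 of 10 without an adjusted p, beside 0.0222%, 0.814% and 0.118% of all features called higher. Unadjusted p was under 0.05 for 0 of the 10 in edgeR, against 6.07% of all features, and KIF20A and KIF18A were the 2 whose libraries did not overlap, against 10.1% of all features.

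Inhibited cells at 4 h were also set against uninhibited cells at 6 h, and no kinesin differed past the threshold in edgeR, with the block or in DESeq2, beside 0.0962%, 1.58% and 0.244% of all features called in either direction. Unadjusted p was under 0.05 for 1 kinesin in edgeR, against 5.57% of all features, and for 0 in DESeq2. KIF14 had 26.4, 19.2 and 20.9 CPM in 4h_ATRi libraries, against 14.9, 7.03 and 16.4 CPM in 6h_DMSO libraries. Those were the 1 pair of groups that did not overlap upward, against 5.28% of all features, and the log2 change of KIF14 was 0.79 ± 0.36 (edgeR adjusted p = 0.827). KIF18A had 8.21, 4.11 and 2.85 CPM in 4h_ATRi libraries, against 9.79, 6.03 and 11 CPM in 6h_DMSO libraries, a log2 change of -0.81 ± 0.44 (edgeR adjusted p = 0.956). The other 8 genes lay between -0.09 and 0.47. These comparisons share their 4h_ATRi, 4h_DMSO and 6h_DMSO libraries with those above, so their values are not independent of them.

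Thymidine arrest was set against asynchronous growth. No kinesin passed the threshold in edgeR or DESeq2, beside 0.429% and 0.518% of all features called lower. Unadjusted p was under 0.05 for 2 of the 10 in edgeR, against 9.89% of all features, and for 1 in DESeq2. The log2 change was positive for 2 of 10, against 48.6% of all features, with a median of -0.36 against -0.01 for all features. KIF20A had 11.3, 19.9 and 11.7 CPM in arrested libraries, against 21.3, 23.9 and 29 CPM in cycling libraries. The KIF20A groups did not overlap, and the log2 change was -0.78 ± 0.28 (edgeR adjusted p = 0.281), which passed at 0.0491 with the block, beside 2.83% of all features called lower. The block's call of KIF20A was lost without any 1 of arrested A, arrested C or the 3 cycling libraries, with adjusted p of 0.0698 to 0.349. KIF14 had 2.37, 8.45 and 2.54 CPM in arrested libraries, against 5.32, 8.47 and 12.6 CPM in cycling libraries, a log2 change of -0.94 ± 0.44 (edgeR adjusted p = 0.484). With the block and without arrested B, KIF14 passed at a log2 change of -1.90 and an adjusted p of 0.015. KIF22 and KIF20A were the 2 kinesins whose arrested libraries all lay below the cycling ones, against 8.62% of all features.

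**Figure D4:**
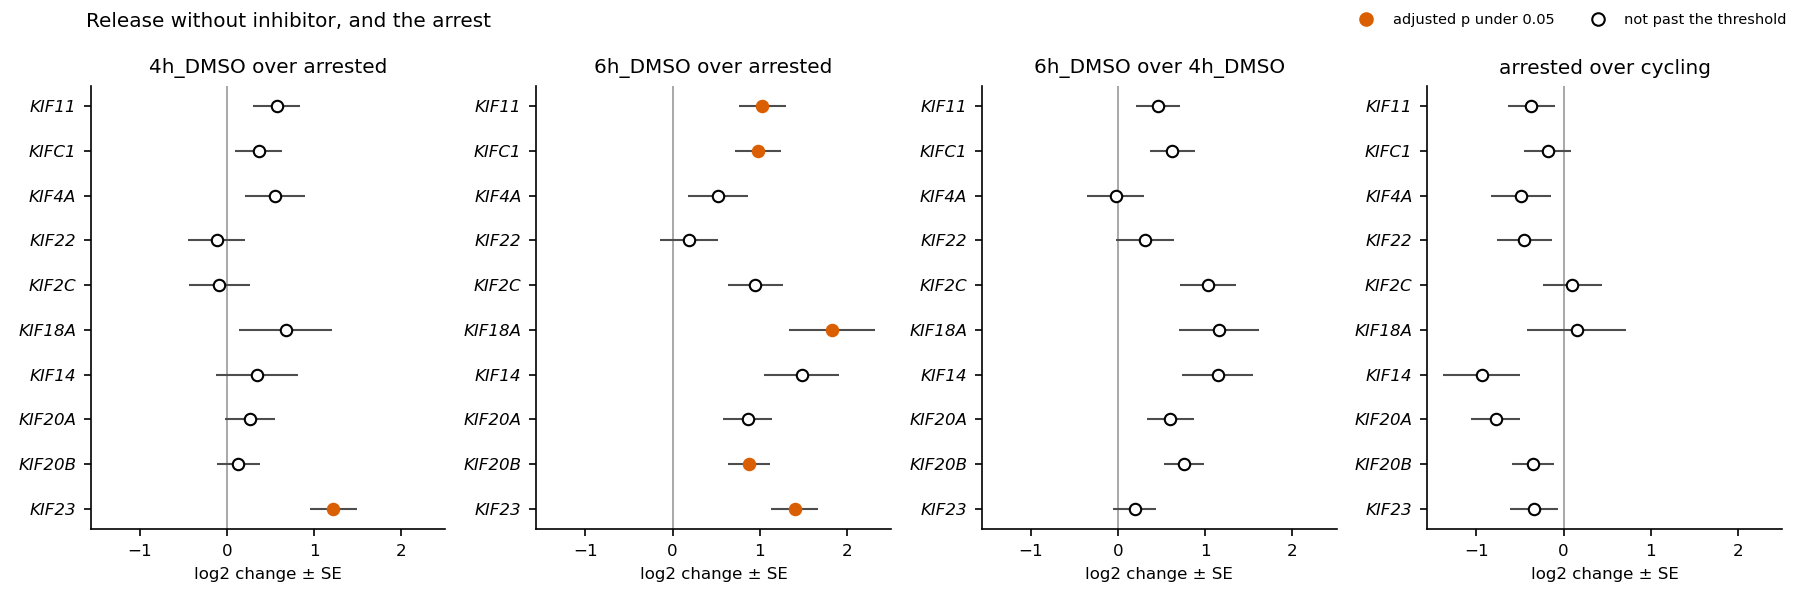
Log2 change with its SE (horizontal axis) for each kinesin in 4h_DMSO over arrested, 6h_DMSO over arrested, 6h_DMSO over 4h_DMSO and arrested over cycling cells; filled points passed the threshold. KIF23 passed at 4 h with 1.22, and KIF23, KIF18A, KIF11, KIFC1 and KIF20B passed at 6 h against arrested cells.

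Of the 10 kinesins, 7 have an annotated feature in GENCODE whose exons overlap theirs on the other strand, and 6 of these loci have such a feature in the count table. KIF14, KIF20B and KIF11 have none, and the feature opposite KIF22 was not in the table. The 7 opposite features counted were CDC23 and BRD8 at KIF20A, KIF23-AS1 at KIF23, PDZD11 at KIF4A, RPL12P1 at KIFC1, METTL15 at KIF18A and ENSG00000225721 at KIF2C. Over all 17 libraries KIF23-AS1 had 4.52 times the counts of KIF23, PDZD11 4.3 times those of KIF4A, and ENSG00000225721 83.6 times those of KIF2C.

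Several opposite features moved as their kinesin did or further. KIF23-AS1, an antisense RNA sharing 231 exon bases with KIF23, had 250, 182 and 191 CPM in 6h_DMSO libraries, against 101, 82 and 103 CPM in arrested libraries. The KIF23-AS1 groups did not overlap, and the log2 change was 1.13 ± 0.20 (edgeR adjusted p = 0.00109). At 4 h KIF23-AS1 had 231, 190 and 183 CPM in 4h_ATRi libraries, against 180, 114 and 147 CPM in 4h_DMSO libraries, a log2 change of 0.45 ± 0.19 with an adjusted p of 0.783, and 0.00784 with the block. That block call was lost without 4h_ATRi B (0.125) and without 4h_DMSO B (0.106). CDC23, a subunit of the anaphase-promoting complex whose exons share 68 bases with KIF20A, had 24.2, 39.7 and 19 CPM in 4h_ATRi libraries, against 9.98, 12.4 and 5.41 CPM in 4h_DMSO libraries. CDC23 rose by 1.57 ± 0.34 on the log2 scale (edgeR adjusted p = 0.0377), a call lost without 4h_ATRi A, 4h_ATRi B, 4h_DMSO A or 4h_DMSO C (0.0791 to 0.308). BRD8, a chromatin protein gene on the other side of the same locus with 132 shared bases, had 25.1, 19.2 and 19.9 CPM in 4h_ATRi libraries, against 7.49, 8.42 and 8.86 CPM in 4h_DMSO libraries. BRD8 rose by 1.37 ± 0.31 (edgeR adjusted p = 0.0499), a call lost with any 1 of the 6 libraries left out (0.0834 to 0.271).

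CDC23 also rose in 6h_DMSO over arrested cells, with 32.2, 25.6 and 17 CPM in 6h_DMSO libraries, against 5.34, 7.95 and 7.62 CPM in arrested libraries. The log2 change of CDC23 was 1.82 ± 0.36 (edgeR adjusted p = 0.00429). BRD8 in the same libraries had a log2 change of -0.04 ± 0.33 (edgeR adjusted p = 0.986), so the 2 features opposite KIF20A differed in their release values while both were higher with the inhibitor at 4 h. PDZD11 had 71.3, 61.8 and 46.6 CPM in 6h_DMSO libraries, against 38.6, 30.3 and 35.1 CPM in arrested libraries, a log2 change of 0.79 ± 0.20 (edgeR adjusted p = 0.025), while KIF4A itself did not pass. The PDZD11 call was lost without 6h_DMSO A, 6h_DMSO B, arrested B or arrested C (0.075 to 0.15). In all, 2 of 7 opposite features passed at 4 h with the inhibitor (3 with the block), against 0.289% of all features called higher (1.2%). At 6 h 0 of 7 passed in edgeR, with the block or in DESeq2. Unadjusted p was under 0.05 there for 2 in edgeR, against 4.8% of all features, and for 2 in DESeq2. In 6h_DMSO over arrested cells 3 of 7 passed, against 1.27% of all features called higher. Across the 17 libraries the kinesin and its opposite feature correlated at r = 0.85 for KIF23, 0.84 for KIFC1, 0.81 for KIF20A with CDC23, 0.75 with BRD8, 0.69 for KIF4A, 0.30 for KIF2C and -0.05 for KIF18A. Each pair shares its libraries and conditions, and these values are descriptive. How far either count reflects the other gene's transcript was not tested.

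**Figure D5:**
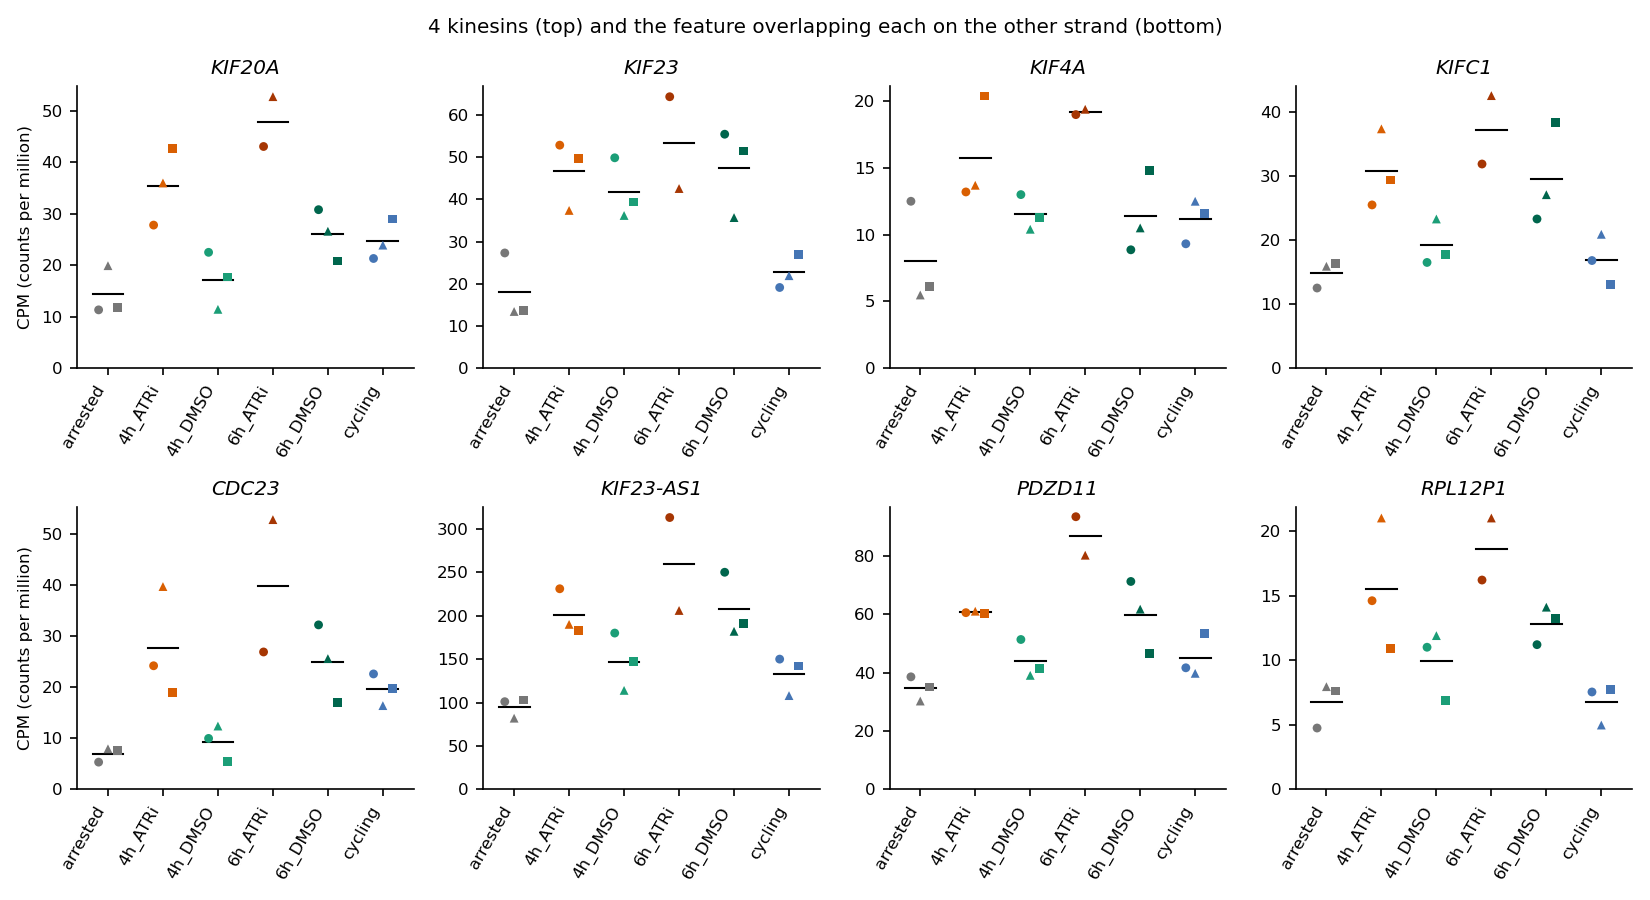
CPM (vertical axis, starting at 0) by condition for KIF20A, KIF23, KIF4A and KIFC1 in the top row and for CDC23, KIF23-AS1, PDZD11 and RPL12P1, each opposite the gene above it, in the bottom row. Circles, triangles and squares are libraries of experiments A, B and C, and bars are means. KIF23-AS1 runs between 82 and 313 CPM, against 13.4 to 64.4 CPM for KIF23, and both are lowest in arrested cells.

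Other motors were read in the same way. CENPE, the kinetochore kinesin that carries chromosomes to the plate, had 60.6, 49.3 and 34.7 CPM in 4h_ATRi libraries, against 22.5, 7.43 and 17.7 CPM in 4h_DMSO libraries. It rose by 1.60 ± 0.34 on the log2 scale (edgeR adjusted p = 0.0491). It was the 1 of 5 tested further mitotic kinesins called at 4 h, against 0.289% of all features called higher. The call was lost without 4h_ATRi A, 4h_ATRi B, 4h_DMSO B or 4h_DMSO C (0.145 to 0.231), and held in 6 of 6 such fits with the block. CENPE also rose in 6h_DMSO over arrested cells, by 1.46 ± 0.36 (edgeR adjusted p = 0.0304), in a call that held without 6h_DMSO B and was lost without any 1 of the other 5 libraries (0.0515 to 0.158). KIF18B, a microtubule depolymerase of astral microtubules, had 24.6, 38.3 and 27.5 CPM in 4h_ATRi libraries, against 14.5, 16.8 and 7.88 CPM in 4h_DMSO libraries. The KIF18B groups did not overlap, and it was the second of the further kinesins called with the block. KIF15, KIF2A and KIF24 had overlapping libraries at 4 h. KIF2B had no reads in any library, and KIF4B, a near-identical copy of KIF4A, had at most 0.932 CPM, so few reads were assigned to it.

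Of 31 partners of these motors on the spindle, kinetochore and midzone, 6 rose at 4 h with the inhibitor (11 with the block). Of all features 0.289% were called higher, and 1.2% with the block. The partners' median log2 change was 0.69, against -0.01 for all features, and all 31 changes were positive, against 49.1% of all features. CENPF, a kinetochore protein, rose by 0.95 ± 0.17 (edgeR adjusted p = 0.00402). PLK1, the polo-like kinase, rose by 1.53 ± 0.30 (0.0125), TPX2, a spindle assembly factor, by 0.96 ± 0.19 (0.0206), and CKAP2, a microtubule-binding protein, by 1.30 ± 0.28 (0.0329). Of these, PLK1 overlaps ERN2 and ENSG00000261266 on the other strand. CENPF passed with each of the 6 libraries left out. The call of PLK1 was lost without 4h_ATRi A, 4h_ATRi B, 4h_DMSO A or 4h_DMSO C (0.0514 to 0.121), that of TPX2 without 4h_ATRi A or any 4h_DMSO library (0.0588 to 0.149), and that of CKAP2 in each case but 4h_ATRi C (0.0726 to 0.182). With the block all 4 passed in 6 of 6 fits. In 6h_DMSO over arrested cells 11 of the 31 rose, against 1.27% of all features called higher. Among them were PLK1, by 2.13 ± 0.35, and the proliferation marker MKI67, by 1.09 ± 0.16 (edgeR adjusted p = 5.36e-04 and 1.04e-04), both also with each library left out. With the block 13 of the 31 were called higher, against 3.77% of all features, and 1 lower. The block called 1041 features there in either direction, 509 of them higher. PLK1 was the 1 partner called lower in arrested than in cycling cells, at -1.94 ± 0.35 (edgeR adjusted p = 0.00279), against 0.429% of all features. With the block 4 were called lower, against 2.83% of all features. At 6 h 0 of 31 passed in edgeR, where unadjusted p was under 0.05 for 11, against 4.8% of all features. With the block 2 passed, against 0.407% of all features called higher. In DESeq2 0 passed, and unadjusted p was under 0.05 for 6.

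Of 18 kinesins of organelle and cargo transport that were tested, 0 passed at 4 h with the inhibitor in edgeR and 1 in DESeq2, and with the block 1 was called higher and 1 lower. Of all features 0.289% were called higher in edgeR, 0.407% in DESeq2 and 1.2% with the block. The block called 237 features in either direction, 162 of them higher. In edgeR without the block their median log2 change was -0.10, against -0.01 for all features. Unadjusted p was under 0.05 for 3, against 5.6% of all features. The smallest p was that of KIF7, at 0.63 ± 0.16 (edgeR adjusted p = 0.131), a ciliary kinesin that overlaps TICRR on the other strand. In 6h_DMSO over arrested cells KIF7 rose by 1.09 ± 0.17 (edgeR adjusted p = 2.49e-04) and KLC1, a kinesin light chain, fell by 0.77 on the log2 scale (0.00636). KLC1 overlaps BAG5 and XRCC3 on the other strand. KIF7 passed with each library left out, and the call of KLC1 was lost without 6h_DMSO C (0.0529) and without arrested C (0.0939). Among 19 tested genes of dynein, the minus-end motor, and its adaptors, NDE1 rose at 4 h with the inhibitor, by 1.88 ± 0.40 (edgeR adjusted p = 0.0285), a call that was lost in each case but 4h_DMSO C when 1 library was left out (0.0541 to 0.22). NDE1 overlaps MYH11 on the other strand, where 8245 reads were counted against 300 for NDE1. Of 14 tested S phase markers 0 passed at 4 h in edgeR, with the block or in DESeq2. Their median log2 change was -0.33, against -0.01 for all features, and unadjusted p was under 0.05 for 1 in edgeR, against 5.6% of all features. TYMS, thymidylate synthase, and MCM3, a subunit of the replicative helicase, were the 2 of 14 that fell in 6h_DMSO against arrested cells, where 5 passed with the block. Of all 13510 features, 314 were called there in either direction, 171 of them higher. With the block 1041 were called, 509 of them higher. TYMS overlaps ENOSF1 and TYMSOS on the other strand. The call of TYMS was lost without 6h_DMSO C (0.119) and without arrested A (0.0707), and that of MCM3 without 6h_DMSO B, 6h_DMSO C, arrested A or arrested C (0.0648 to 0.126).

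Markers of other cell types were low apart from MYH11. Of the 14 matched genes, 5 had enough reads to test, and CD14, DES and HBB had none in any library. Their summed level was 272 to 531 CPM in 4h_ATRi libraries, against 140 to 213 CPM in 4h_DMSO libraries. Without MYH11 it was 20.9 to 28.8 CPM in 4h_ATRi libraries, against 26.1 to 33.2 CPM in 4h_DMSO libraries. The difference lay in MYH11, a smooth muscle myosin gene opposite NDE1, which was called at 1.29 ± 0.22 (edgeR adjusted p = 0.00503, and 0.0603 without 4h_DMSO A and 0.0588 without 4h_DMSO C). Its part in the kinesin values was not tested.

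The 10 kinesins varied together over the libraries. All 45 pairs had positive correlations of log2 CPM over the 17 libraries, from 0.10 to 0.87 with a median of 0.63, which describe shared conditions and shared libraries. KIF20B had the highest mean correlation with the other 9, at 0.72, and KIF22 the lowest, at 0.46. Among 7170 other features with a mean of at least 20 counts, the 8 whose profile was most like the mean profile of the kinesins had r of 0.920 to 0.969 over the 17 libraries. These were CENPF (0.969), TPX2 (0.956), GNB3 (0.945), ARHGAP11A (0.942), INCENP (0.941), MKI67 (0.934), MFSD12 (0.925) and CBR3-AS1 (0.920). GNB3 overlaps the cell division gene CDCA3 on the other strand, and MFSD12 overlaps several genes, FZR1 among them.

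The authors' deposited table gives smaller log2 changes than the fit to the counts for the genes and comparisons that follow. In the authors' deposited table the log2 change of 4h_ATRi over 4h_DMSO was 1.34 for KIF14 (adjusted p 0.00298), 0.88 for KIF20B (0.0189) and 0.87 for KIF20A (0.0595). For release the authors' deposited table runs the other way, arrested over 6h_DMSO, and gives -1.15 for KIF23 (adjusted p 2.25e-04), -0.85 for KIF11 (0.0192), -0.81 for KIFC1 (0.0262) and -0.75 for KIF20B (0.0296). For KIF18A and KIF14 in arrested over 6h_DMSO the authors' deposited table gives -1.03 and -0.93 with no adjusted p.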

How the data were processed

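The authors counted reads per gene, and the deposited table holds those counts without normalization. Per the submitters' processing notes, TopHat, HTSeq and DESeq2 were used with GRCh37, and the strand setting of the counting is not given in the sources used here. The deposited comparison table holds the authors' log2 fold changes with their p-values and adjusted p-values. Total RNA was extracted with Trizol and made into libraries with a stranded mRNA kit, per the labels' protocols.

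Counts of the 17 libraries were fitted together in edgeR 4.0.16 (R 4.3.3) with TMM scaling, a mean per condition and the robust quasi-likelihood test. The filter on low counts was filterByExpr with a minimum count of 10 and of 15 in all. The minimum of 10, scaled to library size, is asked only of as many libraries as the smallest condition has. A gene high in 1 condition can therefore pass with fewer reads elsewhere, and KIF18A was kept with 3 to 21 reads per library. The filter kept 13510 features, and p-values were adjusted by Benjamini-Hochberg over all 13510, with a call at 0.05. The common biological coefficient of variation was 0.23, and 0.119 with the replicate block. Same-letter libraries of the conditions compared deviated together in 22 of 22 pairs (r 0.138 to 0.536). The letters, which name the experiments, were taken to pair the samples. Over all conditions, libraries of different letters reached r = 0.265, for 6h_ATRi A with arrested C. These correlations set experiment B apart, and do not by themselves show that A and C libraries pair by letter. Alternatives were RLE size factors, no filter on low counts, DESeq2 1.42.0, the replicate block, leaving out each library, and leaving out experiment B. Leaving out libraries within the block was added after seeing the data. The fit that sets the calls does not use this pairing, and its p-values measure the spread between libraries of a condition, shifts between experiments included. With the block, p-values measure the spread left once shifts shared by an experiment's libraries are removed. Both rest on 1 cell line. Symbols were matched for 55487 IDs through GENCODE on GRCh38, used only for names and overlaps on the other strand, and no coordinates were moved between builds.

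The 10 kinesins, the gene lists and the tests were chosen with earlier results of these data known. Other genes named from the lists of motors, partners and S phase markers were taken from those that passed with the smallest p in a comparison. Where none passed, they were taken from those with the smallest p. Not every gene that met this rule is named. The genes whose profile was most like that of the kinesins are named as well. All further mitotic kinesins with counts were named.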

Additional observations from a re-analysis of the deposited data

How the results depend on the processing

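Of 996 log2 changes computed for the kinesins and comparisons under the alternatives, 901 kept their direction and side of the threshold, 38 lost a call, 13 gained one and 44 changed sign; the cause was not tested. Counts of 3 to 119 reads per kinesin and library limit what could be called. Without experiment B, 6h_ATRi had 1 library, assumed to vary like the other conditions.

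The replicate block, which pairs libraries by experiment, and leaving out experiment B both raised the count of calls over all features. For 4h_ATRi against 4h_DMSO it was 237 with the block and 85 without experiment B, against 42 in the fit reported. It was 72 and 25, against 1, for 6h_ATRi against 6h_DMSO, and 6 and 3, against 0, for the difference in response. It was 141 and 82, against 11, for 6h_DMSO against 4h_DMSO, 167 and 104, against 4, for 6h_ATRi against 4h_ATRi, and 213 and 119, against 13, for 4h_ATRi against 6h_DMSO. It was 644 and 418, against 100, for 4h_DMSO against arrested, 1041 and 771, against 314, for 6h_DMSO against arrested, and 762 and 264, against 139, for arrested against cycling. Among the 10 kinesins the block made 3 calls, against 2, for 4h_ATRi against 4h_DMSO, 8, against 5, for 6h_DMSO against arrested, and 1, against 0, for arrested against cycling, and changed no other call. Without experiment B 1 kinesin, KIF20A, was called in arrested against cycling cells. With no filter on low counts 1 kinesin was called at 4 h with the inhibitor, KIF14, and 10, 34, 18 and 40 features for 6h_ATRi against 6h_DMSO, 6h_DMSO against 4h_DMSO, 6h_ATRi against 4h_ATRi and 4h_ATRi against 6h_DMSO, where DESeq2 called 18, 30, 24 and 33. DESeq2 called 183 for 4h_DMSO against arrested.

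With 1 library left out, kinesins called ranged over 0 to 2 for 4h_ATRi against 4h_DMSO, 0 to 1 for 4h_DMSO against arrested and 1 to 4 for 6h_DMSO against arrested. All features called ranged over 13 to 41 for 4h_ATRi against 4h_DMSO, 1 to 2 for 6h_ATRi against 6h_DMSO, 7 to 14 for 6h_DMSO against 4h_DMSO, 0 to 13 for 6h_ATRi against 4h_ATRi, 5 to 21 for 4h_ATRi against 6h_DMSO, 26 to 85 for 4h_DMSO against arrested, 143 to 299 for 6h_DMSO against arrested and 50 to 86 for arrested against cycling.

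Signs changed for the log2 changes that follow, not all of which lay near 0. Without experiment B, log2 changes were -1.60e-04 for KIF11, -0.22 for KIF2C and -0.04 for KIF18A in 6h_ATRi against 6h_DMSO, -0.06 for KIF2C in 6h_ATRi against 4h_ATRi, -0.15 for KIFC1 in 4h_ATRi against 6h_DMSO, -0.12 for KIF20B in 4h_DMSO against arrested and 0.04 for BRD8 in 6h_DMSO against arrested. The difference in response of KIF23 was -0.01 with RLE size factors, -0.01 with no filter and -0.009 in DESeq2. With 1 library left out, KIF18A ranged over -0.18 to 0.65 in 4h_ATRi against 4h_DMSO. In 6h_ATRi against 6h_DMSO the ranges were -0.19 to 0.44 for KIF23, -0.04 to 0.60 for KIF23-AS1, -0.03 to 0.35 for ENSG00000225721, -0.09 to 0.39 for KIF2C, -0.02 to 0.36 for KIF11 and -0.10 to 0.28 for KIF18A. For the difference in response they were -0.55 to 0.27 for KIF18A, -0.35 to 0.27 for KIF23, -0.41 to 0.06 for KIF22 and -0.42 to 0.04 for KIF20A. KIF4A ranged over -0.25 to 0.14 in 6h_DMSO against 4h_DMSO. In 6h_ATRi against 4h_ATRi the ranges were -0.23 to 0.008 for KIF14, -0.24 to 0.05 for KIF11, -0.03 to 0.38 for KIF22, -0.01 to 0.19 for KIF20B and -0.16 to 0.46 for KIF23. In 4h_ATRi against 6h_DMSO they were -0.19 to 0.12 for KIF23, -0.10 to 0.30 for KIFC1 and -0.21 to 0.11 for KIF2C. In 4h_DMSO against arrested they were -0.31 to 0.24 for KIF2C, -0.38 to 0.07 for KIF22 and -0.003 to 0.31 for KIF20B. In 6h_DMSO against arrested they were -0.51 to 0.04 for METTL15 and -0.28 to 0.21 for BRD8. In arrested against cycling they were -0.19 to 0.36 for KIF2C, -0.32 to 0.02 for KIFC1 and -0.05 to 0.43 for KIF18A.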
